A study of Mus musculus with 9 samples.

Results

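Macrophages take up fatty acids and cholesterol, store them as droplets and return cholesterol to lipoproteins, and 10 genes of that route were followed here across 3 sorted populations of mouse peritoneal macrophages. The genes are Lpl, Cd36, Fabp4, Fabp5, Plin2, Pparg, Nr1h3, Abca1, Abcg1 and Apoe. They were found by symbol, through the Ensembl identifiers of the GENCODE M21 annotation, and no measured value enters that rule, although the set was proposed with earlier results of these data known. All 10 were found among 47729 gene identifiers, and all 10 were among the 13223 genes with enough reads to be tested.

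The data are bulk RNA-seq read counts from 9 libraries, 3 of monocyte-derived, 3 of tissue-converted and 3 of tissue-resident macrophages. Every mouse carried the Cx3cr1CreERT2-IRES-EYFP/+ and Rosa26-stopfl-tdTomato/+ alleles, in which tamoxifen lets a Cre made under the Cx3cr1 promoter switch on tdTomato, so that only cells making Cx3cr1 while tamoxifen is present become labelled. Every mouse also received complexes of IL-4 (5 µg) and anti-IL4 (25 µg) every other day, starting 4 days before harvest. IL-4 is a cytokine that drives macrophages to the alternatively activated state, and no group was without it. The monocyte-derived group had 2 ml of thioglycollate, a peritoneal irritant that draws in monocytes, and was harvested 4 days later. The converted group had 2 ml of thioglycollate and a tamoxifen diet 10 weeks before harvest. For the resident group the labels give no treatment beyond the IL-4 complexes, so tamoxifen and the earlier irritant cannot be told apart from conversion. The cells were sorted by flow cytometry, with gates not given in the sources used here. Age and sex are not given either.

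Each library held between 15220884 and 20496258 reads in genes. No library pair within a group looked like a repeat deposit. The labels do not tie replicates to different mice, and p-values thus reflect the spread among these libraries alone. All 6 macrophage markers examined were present in every library, with Csf1r, the receptor for the growth factor CSF1, averaging 1095, 1120 and 1105 CPM (a gene's reads relative to the scaled total of its library) in monocyte-derived, converted and resident libraries. The other markers were less even: in the same order Adgre1 averaged 343.3, 3077 and 2978 CPM, Itgam 541.8, 1224 and 1203, Mertk 76.7, 162.4 and 146.7, Lyz2 1837, 576.2 and 436.6 and Cd68 1209, 872.2 and 906.9. Of the 6, 3 were called higher and 1 lower in each comparison with the monocyte-derived group. Sex-linked transcripts followed the same division: Xist reads numbered 3247 in the monocyte-derived libraries, 0 in all converted ones and 2 in the resident group, and Ddx3y had none, 5190 and 5218. Differences between the monocyte-derived group and either other group therefore cannot be told apart from sex or from the recent irritant. In bulk samples, fewer cells that express a gene and less RNA per cell cannot be told apart.

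As background, lipoprotein lipase (Lpl) splits triglyceride in lipoproteins outside the cell, and the scavenger receptor CD36 brings in fatty acids and oxidized lipoprotein. Fatty acid binding proteins carry the lipid inside the cell, and perilipin 2 coats the droplets in which it is stored. PPARγ, the product of Pparg, is a fatty acid-sensing nuclear receptor that pairs with RXR and is induced by IL-4 in macrophages. Lpl, Cd36, Fabp4 and Plin2 are among its known targets. LXRα, the product of Nr1h3, senses oxysterols and raises the efflux transporters Abca1 and Abcg1 and the lipoprotein component Apoe. Nr1h3 is itself a PPARγ target in macrophages.

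In the comparison of converted with monocyte-derived macrophages, 6 of the 10 genes were lower (Lpl, Cd36, Fabp5, Plin2, Pparg and Nr1h3), 1 was higher (Apoe) and 3 were not called. Calls rest on edgeR's quasi-likelihood test with an adjusted p under 0.05. By this rule 50.7% of all genes tested were called, 24.9% as lower and 25.8% as higher. The median log2 fold change of the 10 genes was -1.30, against -0.01 over all genes tested. In resident against monocyte-derived macrophages Abca1 was called lower too, giving 7 lower and 1 higher of 10, beside 50.7% of all genes called, 24.9% lower and 25.7% higher. Their median log2 fold change was -1.59, against 0.00 over all genes. Both comparisons share the monocyte-derived libraries. Between converted and resident libraries 1 of the 10 genes was called, Lpl, which was higher in the converted ones. Of all genes 6.07% were called there, 1.82% higher and 4.26% lower. A gene not called is not shown to be alike. The spread used there was also estimated with the monocyte-derived libraries included. In an edgeR fit of these 2 groups alone Lpl was again the only call (adjusted p = 0.0395), beside 2067 of all genes. The rest ran from 0.0509 (Plin2), 0.0591 (Abcg1) and 0.0925 (Pparg) to 0.862 (Nr1h3).

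Lipoprotein lipase showed the widest range of levels. Lpl (ENSMUSG00000015568, chromosome 8, 68880491 to 68907448, plus strand, GRCm38) was at 811, 1984 and 1638 CPM in monocyte-derived libraries 1, 2 and 3. It was at 121.8, 29.4 and 99.6 CPM in the converted libraries and at 11.6, 7.34 and 14.1 CPM in the resident ones. The 3 groups did not overlap, and converted library 2, with the lowest of the converted values, still stood above every resident library. Lpl was 17.7-fold lower in converted than in monocyte-derived libraries (log2 -4.14 ± 0.55 SE, edgeR adjusted p = 0.000195) and 134-fold lower in resident ones (log2 -7.07 ± 0.63 SE, edgeR adjusted p = 1.78e-05). Its level in converted libraries was 7.60-fold that in resident ones (log2 2.93 ± 0.54 SE, edgeR adjusted p = 0.0144). That last call ended with limma-voom (adjusted p = 0.0546), with no filter on low counts (0.0851) and without resident library 1 (0.0682), 2 (0.0598) or 3 (0.0590). Its adjusted p ran from 4.27e-05 to 0.0851 over 15 alternatives.

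The fatty acid receptor gene Cd36 (ENSMUSG00000002944, chromosome 5, 17781690 to 17888801, minus strand) was at 336.5, 1470 and 897 CPM in the monocyte-derived libraries. The converted libraries had 229.5, 113.9 and 211.4 CPM and the resident ones 108.1, 129.8 and 116.7 CPM. Every monocyte-derived library stood above all others, whereas the converted and resident ranges overlapped. Cd36 fell 4.87-fold in converted (log2 -2.29 ± 0.46 SE, edgeR adjusted p = 0.00254) and 7.63-fold in resident libraries (log2 -2.93 ± 0.48 SE, edgeR adjusted p = 0.000714). Between converted and resident libraries the log2 difference was 0.65 ± 0.45 SE and was not called (edgeR adjusted p = 0.461).

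The adipocyte-type fatty acid carrier Fabp4 (ENSMUSG00000062515, chromosome 3, 10204088 to 10208576, minus strand) had the most variable level in the monocyte-derived group, at 25.5, 205.4 and 100.3 CPM. The converted libraries were at 120.9, 102.8 and 122.7 CPM and the resident ones at 128.0, 143.0 and 123.9 CPM. Both of these groups lay inside the 8.06-fold spread of the monocyte-derived libraries. No comparison called Fabp4 (edgeR adjusted p = 0.930, 0.719 and 0.881 for converted against monocyte-derived, resident against monocyte-derived and converted against resident). Its log2 difference from the monocyte-derived group was 0.06 ± 0.53 SE in converted and 0.26 ± 0.53 SE in resident libraries.

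The epidermal-type carrier Fabp5 (ENSMUSG00000027533, chromosome 3, 10012548 to 10016607, plus strand) was at 94.9, 376.8 and 248.4 CPM in monocyte-derived, 114.7, 99.9 and 85.5 CPM in converted and 99.96, 87.3 and 83.2 CPM in resident libraries. Monocyte-derived library 1 lay among the converted and resident values, and libraries 2 and 3 stood above them. Fabp5 was 2.40-fold lower in converted (log2 -1.26 ± 0.39 SE, edgeR adjusted p = 0.0212) and 2.66-fold lower in resident libraries (log2 -1.41 ± 0.39 SE, edgeR adjusted p = 0.0128). The call in converted libraries ended with limma-voom (0.0539), no filter (0.123), a fit of these 2 groups alone (0.0513), and without monocyte-derived library 2 (0.0888), converted library 2 (0.0589) or converted library 3 (0.0716). The adjusted p ran from 5.12e-05 to 0.123. The call in resident libraries ended with no filter (0.0841) and without monocyte-derived library 2 (0.0526), in a range from 3.08e-05 to 0.0841. Of the 50-base windows in the Fabp5 transcript, 21.1% also occur in transcripts of 5 other genes, so its reads may be split among copies and its level is uncertain.

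The droplet coat gene Plin2 (ENSMUSG00000028494, chromosome 4, 86648386 to 86670060, minus strand) was at 1116, 1493 and 977.5 CPM in the monocyte-derived libraries. It was at 388.2, 480.0 and 542.0 CPM in converted and at 599.1, 607.6 and 582.1 CPM in resident libraries. The 3 groups did not overlap, with converted libraries lowest. Plin2 fell 2.54-fold in converted (log2 -1.35 ± 0.16 SE, edgeR adjusted p = 9.51e-05) and 2.01-fold in resident libraries (log2 -1.004 ± 0.16 SE, edgeR adjusted p = 0.000592). The difference between converted and resident libraries, log2 -0.34 ± 0.16 SE, was not called (edgeR adjusted p = 0.264).

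**Figure D1:**
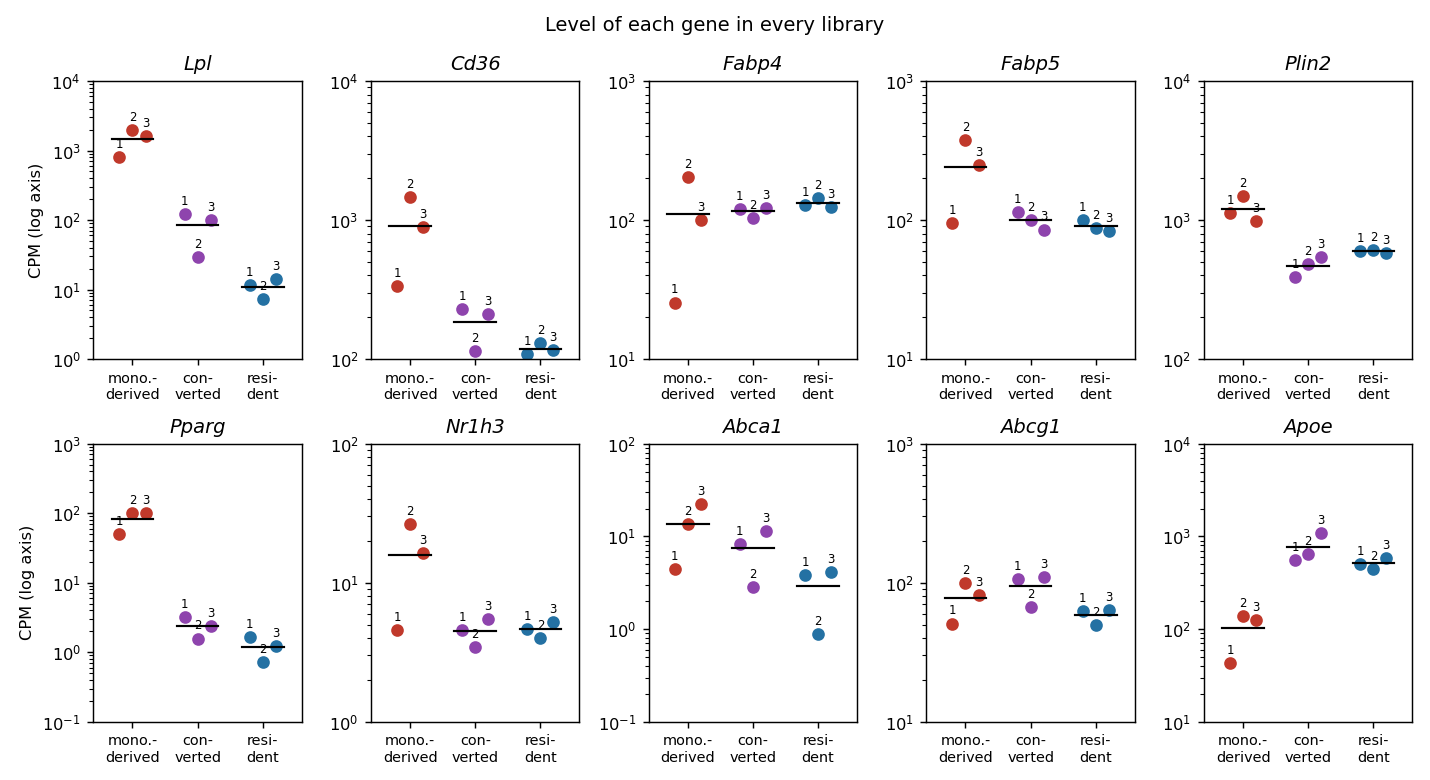
CPM of each of the 10 genes on a log axis, with 1 point per library, its replicate number above it and a horizontal bar at the group mean. Lpl falls through the 3 groups from 1984 to 7.34 CPM without overlap, Fabp4 overlaps between monocyte-derived and both other groups, and Apoe is above 440 CPM in every converted and resident library.

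The nuclear receptor gene Pparg had the largest fold change between converted and monocyte-derived libraries among the 10 genes. Pparg (ENSMUSG00000000440, chromosome 6, 115360951 to 115490399, plus strand) was at 50.2, 99.9 and 101.7 CPM in the monocyte-derived libraries. It was at 3.19, 1.58 and 2.42 CPM in converted and at 1.65, 0.734 and 1.22 CPM in resident libraries, the lowest of which had 14 reads. Every monocyte-derived library stood above all others, and converted library 2 lay among the resident values. Pparg fell 34.8-fold in converted (log2 -5.12 ± 0.37 SE, edgeR adjusted p = 4.00e-06) and 69.6-fold in resident libraries (log2 -6.12 ± 0.40 SE, edgeR adjusted p = 2.43e-06). The log2 difference between converted and resident libraries was 0.999 ± 0.446 SE and was not called (edgeR adjusted p = 0.241). All mice had received IL-4 complexes, so these levels are all levels under IL-4. The counts are per gene and do not separate Pparg isoforms.

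PPARγ with RXR binds direct repeats of the letters AGGTCA set 1 base apart, so stretches before members' start sites were searched for these letters. RefSeq promoter entries (GRCm38.p6) were matched for 6 of the 10 genes, Cd36, Plin2, Pparg, Nr1h3, Abca1 and Apoe. The search covered the 250 bases before each start with an entry, on both strands. Other starts of these genes were not searched. AGGTCA occurred in 14.0% of all 32851 such windows, and the repeat AGGTCANAGGTCA with up to 2 mismatches in 3.24%. Cd36 and Plin2, which both fell beside Pparg, held the single motif and the repeat with 2 mismatches, and their windows are shown for that reason. Fabp7, a carrier outside the members that rose as Pparg fell, also held the single motif, 171 to 166 bases before its start. Plin1, a perilipin gene outside the members that rose likewise, was searched too and held no match. The Plin2 window is printed without its last base, which lies in an annotated exon, and the positions given below count that base. As printed, the 2 windows lie at chr5:17835897-17836146 and chr4:86670061-86670309, both read on the minus strand, with the matches in capitals.
Cd36: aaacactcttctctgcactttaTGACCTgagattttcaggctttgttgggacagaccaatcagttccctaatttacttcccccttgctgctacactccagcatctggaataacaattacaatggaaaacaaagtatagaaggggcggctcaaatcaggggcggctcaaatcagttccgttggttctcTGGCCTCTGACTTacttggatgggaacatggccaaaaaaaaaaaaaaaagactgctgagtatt
Plin2: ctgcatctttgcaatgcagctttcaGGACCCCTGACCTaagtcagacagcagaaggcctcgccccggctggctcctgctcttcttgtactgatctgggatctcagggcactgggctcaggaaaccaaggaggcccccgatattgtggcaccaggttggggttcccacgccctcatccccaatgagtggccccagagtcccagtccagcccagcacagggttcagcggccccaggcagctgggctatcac
The Cd36 window lies inside the annotated gene, whose 5' end is at 17888801, and so precedes an internal start. There the motif, as TGACCT on the opposite strand, lies 228 to 223 bases before that start. The mismatched repeat lies 63 to 51 bases before it. In Plin2 the motif lies 218 to 213 bases before the start, inside the repeat match at 225 to 213. Pparg held single motifs only, 28 to 23 and 9 to 4 bases before the first and the second of its 3 starts, at chr6:115361104-115361133 and chr6:115362328-115362348 on the plus strand, again in capitals.
Pparg, first start: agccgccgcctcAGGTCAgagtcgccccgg
Pparg, second start: agggacgcgaggAGGTCAaga
Both Pparg stretches lie within exons of the GENCODE annotation. The windows of Nr1h3, Abca1 and Apoe held none of these letters. Those of Nr1h3 also lie inside the gene, as do some of Pparg and Apoe. The LXR-type repeat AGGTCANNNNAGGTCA, found with up to 2 mismatches in 2.57% of all windows, was in none of the 6 genes' windows. A match describes letters and not binding, which was not measured, and the absence of a match refers only to these 250 bases.

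The oxysterol receptor gene Nr1h3 (ENSMUSG00000002108, chromosome 2, 91184061 to 91202834, minus strand) was at 4.53, 26.5 and 16.5 CPM in the monocyte-derived libraries. It was at 4.54, 3.47 and 5.51 CPM in converted and at 4.68, 3.99 and 5.24 CPM in resident libraries. Monocyte-derived library 1 lay among the converted and resident values, while libraries 2 and 3 were above all of them. Nr1h3 was 3.51-fold lower in converted (log2 -1.81 ± 0.51 SE, edgeR adjusted p = 0.0148) and 3.40-fold lower in resident libraries (log2 -1.77 ± 0.51 SE, edgeR adjusted p = 0.0163). Without monocyte-derived library 2 these became log2 -1.20 (adjusted p = 0.0534) and -1.15 (0.0626). The call in converted libraries also ended with limma-voom (0.0844), no filter (0.0817) and without converted library 2 (0.0556), in a range from 3.10e-05 to 0.0844. The call in resident libraries ended likewise with limma-voom (0.0923), no filter (0.0844) and without resident library 2 (0.0579), in a range from 3.64e-05 to 0.0923.

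The transporter gene Abca1, whose product loads cholesterol and phospholipid onto apolipoproteins, had low and scattered levels in every group. Abca1 (ENSMUSG00000015243, chromosome 4, 53030787 to 53159895, minus strand) was at 4.43, 13.5 and 22.6 CPM in monocyte-derived, 8.27, 2.84 and 11.4 CPM in converted and 3.80, 0.892 and 4.11 CPM in resident libraries. The resident libraries were all below the monocyte-derived ones, and the converted libraries overlapped both. Abca1 was 4.57-fold lower in resident than in monocyte-derived libraries (log2 -2.19 ± 0.72 SE, edgeR adjusted p = 0.0281). This call ended with limma-voom (0.0682), no filter (0.132), and without monocyte-derived library 2 (0.0607) or 3 (log2 -1.60, 0.100) or resident library 1 (0.0564) or 2 (0.0821), in a range from 0.0102 to 0.132. Neither converted against monocyte-derived (log2 -0.85 ± 0.67 SE, edgeR adjusted p = 0.321) nor converted against resident libraries (log2 1.35 ± 0.71 SE, edgeR adjusted p = 0.331) was called.

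Abcg1, the transporter that passes cholesterol to high-density lipoprotein, was not called in any comparison. Abcg1 (ENSMUSG00000024030, chromosome 17, 31057675 to 31117988, plus strand) was at 50.9, 99.6 and 81.8 CPM in monocyte-derived, 106.1, 67.4 and 110.0 CPM in converted and 62.4, 49.3 and 63.3 CPM in resident libraries. Every converted library stood above every resident one, and the monocyte-derived values overlapped both. The adjusted p from edgeR was 0.371 for converted and 0.210 for resident against monocyte-derived libraries, and 0.156 for converted against resident ones. The log2 difference between converted and resident libraries was 0.70 ± 0.25 SE. Without monocyte-derived library 1 that difference was called (log2 0.70, adjusted p = 0.0426), as was a lower level in resident than in monocyte-derived libraries (log2 -0.64, adjusted p = 0.0271).

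Apoe, the apolipoprotein that macrophages secrete with cholesterol, was the only one of the 10 genes called higher outside the monocyte-derived group. Apoe (ENSMUSG00000002985, chromosome 7, 19696109 to 19699188, minus strand) was at 43.2, 137.7 and 124.7 CPM in the monocyte-derived libraries. It was at 559.4, 652.1 and 1090 CPM in converted and at 507.8, 440.2 and 586.8 CPM in resident libraries. Every converted and resident library stood above every monocyte-derived one. Apoe rose 7.54-fold in converted (log2 2.91 ± 0.42 SE, edgeR adjusted p = 0.000324) and 5.03-fold in resident libraries (log2 2.33 ± 0.41 SE, edgeR adjusted p = 0.00114). Converted and resident libraries overlapped, and their difference was not called (log2 0.58 ± 0.39 SE, edgeR adjusted p = 0.443).

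**Figure D2:**
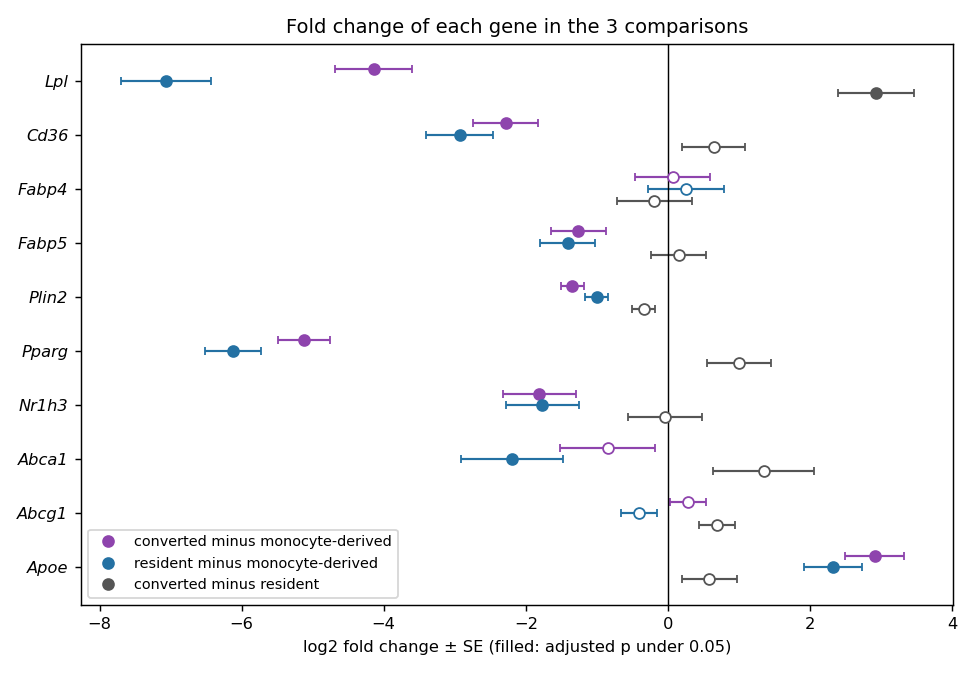
Log2 fold change of each of the 10 genes with its standard error in 3 comparisons, from edgeR fits over all 9 libraries, with filled points for an adjusted p under 0.05. Against the monocyte-derived group most points lie left of 0, down to -7.07 for Lpl in resident libraries, and Apoe lies at 2.91 and 2.33, while only Lpl is filled for converted against resident.

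Groups did not overlap for 5 of the 10 genes in converted against monocyte-derived libraries (56.3% of all genes tested) and for 6 in resident against monocyte-derived ones (59.5%). They did not overlap for 4 genes in converted against resident libraries (37.3% of all genes), Lpl and Abcg1 being higher and Fabp4 and Plin2 lower in the converted ones. By unadjusted p under 0.05, 2 of the 10 genes, Lpl and Abcg1, passed in that comparison, beside 20.8% of all genes. DESeq2 called 1 of the 10 genes there, beside 1315 genes in all, and limma-voom none, beside 861 in all. Lpl, Cd36, Plin2, Pparg and Apoe were called in the same direction against the monocyte-derived group under all 15 alternatives, in both converted and resident libraries.

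The spread within the monocyte-derived group ran the same way for most members. Library 1 was the lowest of the 3 for 9 of the 10 genes, where it was the lowest for 38.7% of all genes tested, and library 2 was the highest for 8 (31.6% of all genes). In the converted group library 2 was the lowest for 7 of the 10 genes (34.1% of all genes), namely Lpl, Cd36, Fabp4, Pparg, Nr1h3, Abca1 and Abcg1. In the resident group library 2 was lowest for 6 (33.7% of all genes). In the monocyte-derived and resident groups Plin2 was the steadiest, with a highest value 1.53 times the lowest in the former and 1.04 times in the latter.

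Several of the members are also expressed by fat cells, endothelium or other leukocytes, and markers of those cells were read beside them. The adipokine gene Adipoq was at 0.480, 5.61 and 2.72 CPM in the monocyte-derived libraries. Converted libraries had no read of it and resident ones 6. Lpl, Cd36, Fabp4, Fabp5, Nr1h3, Abcg1 and Apoe shared that order of the monocyte-derived libraries. So did the macrophage markers Adgre1, Mertk, Lyz2 and Cd68, whereas Csf1r and Itgam did not. The summed level of 10 fat cell markers was 0.533 to 5.72 CPM in monocyte-derived, 11.9 to 25.8 in converted libraries and 13.2 to 20.2 in resident ones, the converted and resident sums being mostly Plin1. In the monocyte-derived libraries 5 of the 10 markers had no read, Cidec, Plin4, Adrb3 and Thrsp among them. Their part in the results was not tested.

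Other cell types gave the following sums. The 7 endothelial markers summed to 141.7 to 147.0 CPM in monocyte-derived, 65.4 to 79.2 in converted libraries and 67.7 to 76.2 in resident ones, mostly Pecam1. Vwf averaged 24.4, 2.35 and 3.02 CPM in the same order, and both genes were called lower outside the monocyte-derived group. In monocyte-derived libraries Vwf was at 11.8, 33.9 and 27.5 CPM, the order of Adipoq, whereas Pecam1 was at 134.8, 111.0 and 111.2 CPM. Gpihbp1, the endothelial anchor of lipoprotein lipase, had no read. Neutrophil markers (7) summed to 20.1 to 53.0 CPM in monocyte-derived libraries, 1.63 to 2.00 in converted and 1.05 to 2.70 in resident ones. T and NK cell markers (9) summed to 15.04 to 88.6, 2.25 to 6.41 and 24.2 to 38.9 CPM in the same order. In monocyte-derived libraries that sum was mostly Gzma, which averaged 35.7 CPM there, 1.44 in converted and 14.6 in resident libraries. Against monocyte-derived libraries, 2 of the 9 markers were called lower in converted, and 4 higher and 1 lower in resident ones. Neutrophil sums thus set the monocyte-derived libraries apart, and T and NK cell sums were lowest in the converted ones. The 8 B cell markers summed to 40.3 to 95.2 CPM in converted and 585 to 781 CPM in resident libraries, with 12.5 to 31.9 in monocyte-derived ones, and 7 of the 8 were called lower in converted than in resident libraries. The 7 dendritic cell markers summed to 18.4 to 72.1 CPM in monocyte-derived, 21.5 to 81.1 in converted libraries and 173.6 to 189.0 in resident ones. That sum was mostly Cd209a in converted and resident libraries. Cd209a averaged 20.1, 48.6 and 172.0 CPM in monocyte-derived, converted and resident libraries, where the sums averaged 44.8, 53.3 and 183.6. Of the 7 markers, 4 were called lower and none higher in converted, and 3 lower and 1 higher in resident libraries, against monocyte-derived ones. The highest sums in any library were 11.9 CPM for the 10 mesothelial and fibroblast and 8.02 CPM for the 8 eosinophil and mast cell markers. The part of these cells in the results, the Lpl difference between converted and resident libraries included, was not tested.

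Levels of different genes were compared as CPM per kilobase of the principal transcript. In monocyte-derived libraries Plin2 led at 633.4, followed by Lpl at 359.1, Cd36 at 265.2 and Fabp5 at 243.2. These last 3 overlapped between libraries, as Lpl ran from 197.2 to 482.1, Cd36 from 99.0 to 432.6 and Fabp5 from 96.1 to 381.7 CPM per kilobase. Fabp4 at 123.2, Apoe at 72.4 and Pparg at 47.5 followed, then Abcg1 at 13.3, Nr1h3 at 8.09 and Abca1 at 1.32. In converted libraries Apoe led at 544.8, ahead of Plin2 at 249.0, Fabp4 at 128.9 and Fabp5 at 101.4 CPM per kilobase. Lpl had dropped to 20.3, overlapping Abcg1 at 16.2. In resident libraries the leading mean was again that of Apoe, 363.4, but its range of 312.7 to 416.7 overlapped that of Plin2, 308.3 to 321.8. Lpl, at 2.67, there overlapped Nr1h3 at 2.37 and Pparg stood at 0.681 CPM per kilobase. Dividing by all annotated exon bases instead placed Cd36 (251.0) above Lpl (141.0) in monocyte-derived libraries and lowered Fabp4 to 24.6, since its annotated exons cover 4489 bases against 896 in the principal transcript.

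**Figure D3:**
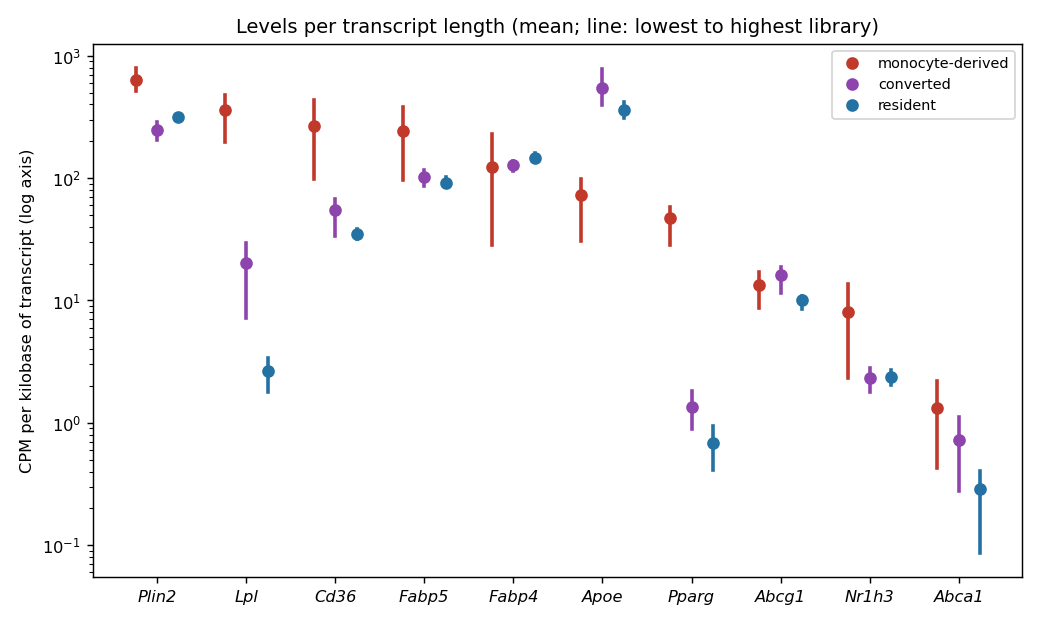
Mean CPM per kilobase of principal transcript for each gene in the 3 groups on a log axis, with a line from the lowest to the highest library. Plin2 at 633.4 and Lpl at 359.1 lead in monocyte-derived libraries and Apoe leads in converted (544.8) and resident (363.4) libraries, whereas Abca1 is lowest in all 3 groups.

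For each member the 3 protein-coding genes with the closest pattern over the 9 libraries were found among 7694 genes, by the root-mean-square difference of centred log2 CPM. The genes closest to Pparg were Akr1b8, an aldo-keto reductase (0.34 log2 units), Fads3, of the fatty acid desaturase family (0.45), and Ak4, an adenylate kinase (0.49), where the median gene differed by 2.65. Akr1b8 (0.95) and Ak4 (1.11) were also among the closest 3 to Lpl, with Gdf3, a growth factor of the TGF-β family, first at 0.88 and a median of 2.94. Closest to Fabp5 were Lipa, the lysosomal acid lipase, at 0.17, Plpp3 at 0.20 and the lysosomal protease Ctsb at 0.20 (median 0.75). Nr1h3 lay closest to Syngr1 (0.19) and the lysosomal proteases Lgmn (0.25) and Ctsl (0.28), with a median of 0.96. Plin2 lay closest to Plekhm2 (0.09) and Cd36 to Tnfsf12 (0.30). Apoe lay closest to the carboxypeptidase gene Cpd (0.32), Abcg1 to the tropomyosin gene Tpm1 (0.19) and Fabp4 to Fam219a (0.32). The nearest gene to Abca1 was the lysozyme gene Lyz2, at a wide 0.77. Among the members themselves the closest pair was Fabp5 and Nr1h3 (0.33), and Lpl and Pparg differed by 0.81. Such likeness mixes differences between group means with spread inside groups, and the 2 were not separated. Fabp4, for example, had group means of 110.4, 115.5 and 131.6 CPM in monocyte-derived, converted and resident libraries. Its monocyte-derived libraries alone ran from 25.5 to 205.4 CPM.

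Outside the members, 140 further genes of lipid handling were followed in 9 lists, and 111 of them were tested. In converted against monocyte-derived libraries 29 rose and 33 fell, 55.9% of those tested beside 50.7% of all genes. In resident against monocyte-derived libraries 31 rose and 30 fell (55.0%). Between converted and resident libraries 1 was higher and 4 lower (4.5% beside 6.07% of all genes). Over the lists together the share of called genes was thus close to that of all genes. Single lists differed in converted against monocyte-derived libraries, from 26.7% called for sterol response genes to 90.0% for droplet and triglyceride genes. These shares were not tested, and the lists are described only by what their members did.

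Among lipoprotein receptors, 2 of 10 rose and 3 fell in converted against monocyte-derived libraries. Msr1, the class A scavenger receptor for modified lipoprotein, went against Cd36. It averaged 85.6 ± 13.8 CPM (SD, n = 3) in monocyte-derived, 510.5 ± 80.0 in converted libraries and 336.1 ± 34.4 in resident ones. It was 5.96-fold higher in converted (edgeR adjusted p = 7.91e-07) and 3.93-fold higher in resident libraries (4.27e-06) than in monocyte-derived ones. Olr1, the lectin-like receptor for oxidized lipoprotein, fell from 40.7 ± 17.7 to 4.70 ± 3.39 and 3.24 ± 1.23 CPM (edgeR adjusted p = 0.000631 and 0.000310). Of 7 tested genes that mature, bind or cleave lipoprotein lipase, 1 rose and 2 fell in converted libraries (42.9% called beside 50.7%). Furin, a protease that can cleave the lipase, fell 4.81-fold from 437.6 ± 94.1 to 90.9 ± 9.67 CPM (edgeR adjusted p = 1.45e-06), and Lmf1, needed for folding of the lipase, fell 1.46-fold (edgeR adjusted p = 0.00291). Lmf2, of the same family as Lmf1, rose 1.44-fold from 64.6 ± 14.6 to 92.9 ± 15.6 CPM (edgeR adjusted p = 0.0209).

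Fatty acid carriers outside the members moved in both directions, with 3 of 8 called higher and 4 lower in converted and in resident libraries alike. In each comparison 87.5% were called, beside 50.7% of all genes. Fabp7, the brain-type binding protein, rose from 1.98 ± 0.64 CPM (SD, n = 3) in monocyte-derived to 78.0 ± 11.8 in converted and 57.9 ± 4.26 in resident libraries (39.5-fold and 29.4-fold, edgeR adjusted p = 6.83e-08 and 1.15e-07). The fatty acid transporter gene Slc27a1 fell from 74.2 ± 28.9 to 8.12 ± 4.88 and 11.1 ± 2.49 CPM (edgeR adjusted p = 0.000220 and 0.000482). Slc27a3 of the same family fell from 20.9 ± 9.85 to 0.456 ± 0.039 and 2.595 ± 0.420 CPM (edgeR adjusted p = 3.55e-06 and 5.13e-05). Of 20 droplet and triglyceride genes, 13 fell and 5 rose in converted libraries (90.0% called), with a list median of log2 -0.55. In resident libraries 11 fell and 4 rose (75.0% called), beside 50.7% of all genes in each comparison. Hilpda, an inhibitor of triglyceride breakdown on droplets, fell 7.55-fold from 197.1 ± 94.4 to 26.1 ± 6.93 CPM in converted libraries (edgeR adjusted p = 0.000148). Soat1, which esterifies cholesterol for storage, fell 4.62-fold in converted (385.1 ± 79.3 to 83.4 ± 2.53 CPM, edgeR adjusted p = 2.04e-06) and 5.53-fold in resident libraries (edgeR adjusted p = 1.23e-06). Lpin2, a phosphatidate phosphatase, rose 1.91-fold in converted libraries (edgeR adjusted p = 0.000144).

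No listed partner of PPARγ was called lower beside Pparg, where 24.9% of all genes were called lower in each comparison. Of 12 tested PPAR, RXR and coregulator genes, 4 rose and none fell in either comparison with the monocyte-derived group. That is 33.3% called, below the 50.7% of all genes. Rxra, the RXR with which PPARγ pairs, averaged 67.8 ± 3.49 CPM (SD, n = 3) in monocyte-derived, 129.9 ± 12.7 in converted libraries and 110.7 ± 2.72 in resident ones (edgeR adjusted p = 1.52e-05 and 9.77e-05). The coactivator gene Ppargc1b was at 31.8 ± 4.97, 45.2 ± 1.97 and 63.7 ± 6.42 CPM in the same order. It was 2.01-fold higher in resident than in monocyte-derived libraries (edgeR adjusted p = 0.000105) and lower in converted than in resident ones (log2 -0.50 ± 0.12 SE, edgeR adjusted p = 0.0433). Of 14 further PPAR target genes, 5 rose and 1, Hilpda, fell in both comparisons (42.9% called beside 50.7% of all genes). Acadl and Acaa2, enzymes of fatty acid oxidation, rose 1.93-fold and 2.17-fold in converted libraries (edgeR adjusted p = 0.00226 and 1.74e-05).

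The other LXR gene, Nr1h2, and known LXR targets outside the members went in both directions. Of 12 tested genes in that list, 6 rose and 2 fell in converted and 6 rose and 3 fell in resident libraries, where 25.8% and 25.7% of all genes were called higher and 24.9% lower in each. Cd5l, a secreted macrophage protein, rose from 25.6 ± 21.7 CPM (SD, n = 3) to 2350 ± 374.4 in converted and 2152 ± 128.8 in resident libraries (92.1-fold and 84.3-fold, edgeR adjusted p = 4.95e-05 and 5.44e-05). Smpdl3a, a phosphodiesterase, rose 5.75-fold to 1191 ± 110.8 and 4.89-fold to 1014 ± 42.3 CPM (edgeR adjusted p = 3.45e-07 and 7.03e-07). Pltp, the phospholipid transfer protein gene, went the other way, from 761.2 ± 177.2 to 285.2 ± 58.0 and 240.4 ± 8.98 CPM (edgeR adjusted p = 0.000186 and 7.21e-05). Nr1h2, the gene of the second LXR, fell 1.33-fold in converted libraries (76.4 ± 2.26 against 102.0 ± 10.7 CPM, edgeR adjusted p = 0.00278).

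Inside the cell, 3 of 18 cholesterol and oxysterol genes rose and 6 fell in both comparisons with the monocyte-derived group. Ch25h, which makes the LXR ligand 25-hydroxycholesterol, had 2442 reads in monocyte-derived, none in converted and 4 in resident libraries. It was at least 899-fold lower in converted libraries, taking 3 reads over the group as the floor, and the ratio to resident libraries was 684 (95% exact interval for counting error only, 267 to 2510). Nceh1, a hydrolase of cholesterol esters, fell 2.78-fold in converted libraries (edgeR adjusted p = 0.000852). The mitochondrial cholesterol-binding gene Tspo rose 1.54-fold (edgeR adjusted p = 9.06e-05). The sterol response list holds 15 genes that cells raise when sterol is short. In converted libraries 1 was higher and 3 lower (26.7% called), and in resident ones 4 were higher and 1 lower (33.3%). Of all genes 50.7% were called in each comparison. The synthesis genes Sqle and Cyp51 fell 2.12-fold and 2.099-fold in converted libraries (edgeR adjusted p = 0.0281 and 0.00564), and Mvd rose 1.52-fold (edgeR adjusted p = 0.00211).

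Between converted and resident libraries the wider lists held 5 called genes. Msr1 was 1.52-fold higher in converted libraries (edgeR adjusted p = 0.0376) and Ppargc1b was lower, as given above. The other 3 were low in level and are named after their values were seen. Sorl1, a sorting receptor, had 2.67 ± 1.54 against 18.6 ± 4.95 CPM (SD, n = 3, edgeR adjusted p = 0.0155), and Slc27a3 had 0.456 ± 0.039 against 2.595 ± 0.420 CPM (edgeR adjusted p = 0.0101). Rxrg, an RXR gene, had 0.124 ± 0.062 against 0.891 ± 0.189 CPM (edgeR adjusted p = 0.0208). By edgeR, DESeq2 and limma-voom alike, none of the droplet genes (20 tested), PPAR targets (14), genes of the LXR list (12), intracellular cholesterol genes (18) or sterol response genes (15) was called in this comparison. At an unadjusted p under 0.05, 2 droplet genes, 2 PPAR targets, 4 genes of the LXR list, 2 intracellular cholesterol genes and 5 sterol response genes passed. Of all genes tested, edgeR called 6.07% in this comparison, and 20.8% had an unadjusted p under 0.05.

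**Figure D4:**
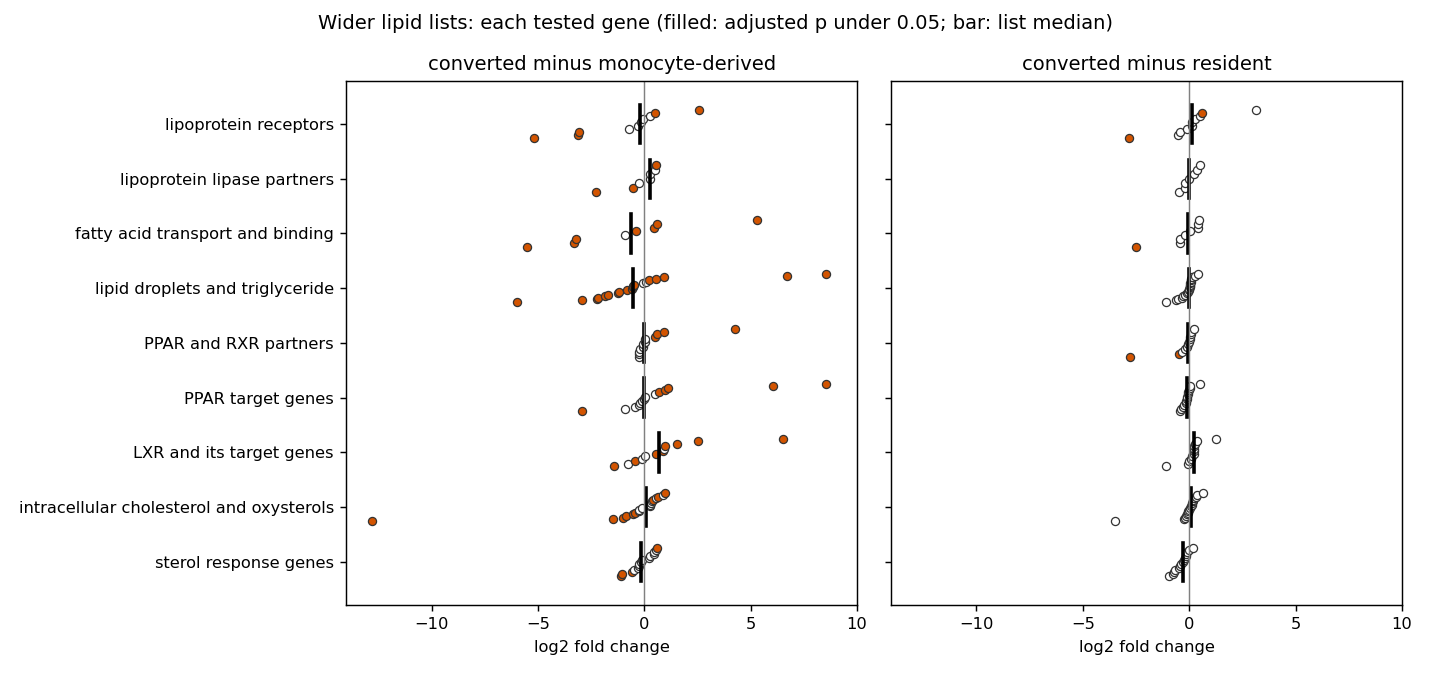
Log2 fold change of every tested gene of the 9 wider lipid lists, for converted minus monocyte-derived libraries on the left and converted minus resident libraries on the right, with filled points for an adjusted p under 0.05 and a bar at each list's median. Droplet genes have a median of -0.55 and the LXR list one of 0.70 on the left, and on the right 5 different genes are filled; the leftmost point is Ch25h, which had no read in converted libraries, so its place is set by the fit and is no measured fold.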

How the data were processed

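RNA from sorted peritoneal macrophages was made into libraries with a low-input total RNA kit, per the labels' protocols. The authors deposited raw read counts per Ensembl gene for each of 9 libraries. TopHat2 2.1.0, HTSeq and the build GRCm38 are named in the submitters' processing notes. The strand setting and the annotation counted on were not given in these sources. Of 47729 identifiers, 47224 matched GENCODE M21. The 5 summary lines were left out; reads in no feature made up 4.02 to 5.66% and ambiguous reads 4.47 to 4.68%.

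The test was edgeR 4.0.16's quasi-likelihood F-test in R 4.3.3, on counts filtered by filterByExpr (minimum count 10, total 15), TMM-scaled and fitted over all 9 libraries with 6 residual degrees of freedom and Benjamini-Hochberg adjustment over 13223 genes. The fit was tested on simulated data. Wider genes were named as up to 2 called genes per list, comparison and direction with the largest fold change and at least 20 CPM. Alternatives were DESeq2 1.42.0, limma-voom 3.58.1, RLE scaling, no filter, a replicate block, fits of 2 groups and leaving out each library. Likeness of pattern used log2 CPM with a prior count of 2. Promoter sequences came from RefSeq. The members and lists were chosen with earlier results of these data known.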

Additional observations from a re-analysis of the deposited data

How the results depend on the processing

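Of 450 refits of a member's fold change under an alternative, 417 kept their direction and side of the threshold, 27 lost a call, 2 gained one and 4 changed sign, none of the last called. With 1 library left out, Fabp4 ran from log2 -0.41 to 0.89 in converted and from -0.22 to 1.09 in resident against monocyte-derived libraries, the lowest without monocyte-derived library 1 and the highest without library 2. Nr1h3 in converted against resident libraries ran from -0.21 (without converted library 3) to 0.12 (without converted library 2), with 0.06 without resident library 3. Members called in resident against monocyte-derived libraries numbered 8 in the main fit and 5 with no filter. They numbered 5 to 9 when 1 library was left out, with 5 without monocyte-derived library 2. Over all genes, the main fit called 6698 in that comparison, beside 6629 with no filter and 6652 without monocyte-derived library 2. These calls ran from 5680 to 6875 with 1 library left out. In converted against resident libraries the 1 call became 0 with limma-voom and with no filter, and 0 to 2 with 1 library left out (2 without monocyte-derived library 1). All genes called there, 803, became 1315 with DESeq2, 861 with limma-voom, 852 with no filter and 2067 in the fit of 2 groups. With 1 library left out they ran from 245 (resident library 3) to 1628 (monocyte-derived library 1), with 361, 535 and 354 without converted library 1, 2 and 3 and 295 and 400 without resident library 1 and 2. The 5 wider lipid genes called there became 11 in the fit of 2 groups and 1 to 7 with 1 library left out. Settings that leave out libraries also have fewer degrees of freedom; for the other changes the cause was not tested. Depth limits Pparg and Abca1 in resident libraries, where the lowest counts were 14 and 17 reads.

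Replicate numbers gave no sign of pairing. Deviations of same-numbered libraries correlated between -0.09 and 0.07 over 9 pairs, and 2 of 9 libraries correlated best with their own number. With a replicate block, converted against resident libraries had 530 genes called in all and 3 wider lipid genes, and the block changed no call of a member in any comparison.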

Other observations

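Plin1, a perilipin known from fat cells and named here after its values were seen, had 2 reads in the monocyte-derived libraries, 16.9 ± 7.58 CPM (SD, n = 3) in converted and 16.6 ± 3.35 CPM in resident ones. The ratio to monocyte-derived libraries was 443 in converted (95% exact interval for counting error only, 122 to 3660) and 426 in resident libraries (118 to 3520). Plin2, on the same scale and not divided by length, averaged 1196 CPM in the monocyte-derived group, 470.1 CPM in the converted group and 596.3 CPM in the resident group. Adipoq, another fat cell gene, had no read in the converted libraries that held Plin1.

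Within a library, the ratio of Fabp5 to Fabp4 per kilobase of principal transcript was higher in the monocyte-derived group than in the others. It was 3.38, 1.67 and 2.25 in monocyte-derived, 0.861, 0.882 and 0.633 in converted and 0.709, 0.554 and 0.610 in resident libraries. Which of both genes stood higher depends on the length used: per kilobase of all annotated exon bases, Fabp5 averaged 28.1 and Fabp4 25.7 in converted libraries, and the Fabp5 level is uncertain because of its shared sequence. The ratio of Cd36 to Lpl per kilobase was 0.502, 0.897 and 0.663 in monocyte-derived, 2.28, 4.70 and 2.57 in converted and 11.3, 21.4 and 10.1 in resident libraries, with no overlap between groups. These ratios were chosen after the values were seen and were not tested.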
